A study of Mus musculus with 17 samples.

Results

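The 9 genes described here differed between Lmo2-transgenic and wild-type immature thymocytes in each of the 3 settings in which the genotypes were compared. They are Slc22a4, Kcns3, Atp8a2, Tenm4, Clec4d, Tmem45a, Pwwp3b, Cpeb1 and Macc1. They are 9 of 27179 genes in the count table, and were taken by their Entrez identifiers. They were chosen by their fold change between transgenic and wild-type cells in those comparisons, in these same libraries. Those fold changes are therefore given as a description, with no p-value. RNA-seq counts came from 17 libraries of DN2 and DN3a thymocytes, early CD4-CD8- stages of T cell development, in 6 groups. All mice were C57BL/6, either wild-type or carrying an Lmo2 transgene, and the promoter that drives the transgene is not given in the sources used here. The young groups were wild-type DN2 (n = 2), transgenic DN2 (n = 3), wild-type DN3a (n = 3) and transgenic DN3a (n = 3), all from mice of 2.5 weeks except wild-type DN3a replicate 3, from a mouse of 3 weeks. The old groups were wild-type DN3a (n = 3, aged 10, 8 and 8 weeks) and transgenic DN3a (n = 3, aged 6, 10 and 10 weeks). The old mice were all female, and each young group held mice of both sexes. The design text speaks of 3 replicates per combination, and 2 wild-type DN2 libraries are used here.

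LMO2 is a LIM-domain protein that does not bind DNA itself. It bridges a complex in which LDB1, a GATA factor and a pair of basic helix-loop-helix proteins such as TAL1 or LYL1 hold the DNA, at GATA and E-box letters. In the thymus the gene is normally silenced as progenitors commit to the T lineage, and its persistent expression is a known route to T cell leukaemia.

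Libraries held 7183303 to 11360308 counted reads, and levels are given as CPM, with the library size scaled by TMM. Wild-type DN2 replicate 1 held the most reads and had reads in the fewest genes, 13028 against 14447 to 15680 in the others. How this bears on its levels was not tested. A single read was worth 0.0884 to 0.161 CPM, and 3 reads 0.265 to 0.483 CPM. Lmo2 had 0 to 8 reads in each of the 8 wild-type libraries and 205 to 1654 in each of the 9 transgenic ones, as each library was labelled. Within the transgenic groups its level was 118 ± 33.2 CPM (SD, n = 3) in DN2, and 35.5 ± 3.84 and 24.8 ± 4.63 CPM in DN3a of young and old mice. All 14 genes of a DN thymocyte marker list, among them Il2ra, Kit, Ptcra and Cd3e, had reads in every group. Their summed level was lower in the transgenic libraries of each setting, without overlap. In DN2 it was 7030 to 8850 against 11821 to 12294 CPM (transgenic first). In young DN3a it was 11606 to 12311 against 14358 to 16456 CPM and in old DN3a 10175 to 11410 against 14734 to 16615 CPM. By edgeR at an adjusted p under 0.05, 7 of the 14 were lower in transgenic DN2, 3 in young and 8 in old DN3a. Of all genes 12.0%, 5.16% and 15.7% were. Higher were 1, 1 and 3 of the 14, and 13.3%, 4.70% and 14.9% of all genes. One feature, which got no name from RefSeq here, took 0.306 to 16.6% of a library's reads. It took over 8% in 4 libraries (transgenic DN2 replicates 2 and 3, transgenic young DN3a replicate 1 and wild-type old DN3a replicate 1). Wild-type DN2 libraries gave it 0.609 and 1.33% of their reads, against 3.81, 16.6 and 12.4% for transgenic DN2. These are bulk samples, in which fewer cells of a type and less RNA per cell cannot be told apart. Each library of a group came from a different mouse, and 5 young mice gave both a DN2 and a DN3a library.

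The start regions of 3 genes are shown because they hold letters of the kind that the LMO2 complex is known to use. RefSeq (GRCm38.p6) gave 11 windows of 250 bases before a start site, for 8 of the 9 genes. Both strands of each window were searched for the letters GATA, the core of sites of GATA factors. They were also searched for a pair of E-box forms, the first of which is CAGGTG. The second form, which reads alike on both strands, is CAGCTG. No one of these motifs contains another. The 3 windows below run 5′ to 3′ on the strand of the gene up to the base before the start, with the matches in capitals. They are the first Tenm4 window at chr7:96170994-96171243 on the plus strand and the Cpeb1 window at chr7:81454759-81455008 on the minus strand. The last is the Macc1 window at chr12:119443160-119443409 on the plus strand. The Tenm4 window ends where the span of the gene begins. The Cpeb1 and Macc1 windows lie inside the gene spans given below, so that they precede internal starts and not the annotated 5′ ends of these genes.
Tenm4: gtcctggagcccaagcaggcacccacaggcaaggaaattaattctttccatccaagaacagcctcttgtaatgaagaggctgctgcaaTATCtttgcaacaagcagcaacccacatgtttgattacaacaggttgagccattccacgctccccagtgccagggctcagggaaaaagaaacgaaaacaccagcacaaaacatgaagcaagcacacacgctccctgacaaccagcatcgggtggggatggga
Cpeb1: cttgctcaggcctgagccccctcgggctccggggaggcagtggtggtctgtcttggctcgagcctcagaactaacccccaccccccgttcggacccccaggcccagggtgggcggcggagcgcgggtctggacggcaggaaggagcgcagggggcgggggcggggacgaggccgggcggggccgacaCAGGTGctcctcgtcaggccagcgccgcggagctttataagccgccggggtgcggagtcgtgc
Macc1: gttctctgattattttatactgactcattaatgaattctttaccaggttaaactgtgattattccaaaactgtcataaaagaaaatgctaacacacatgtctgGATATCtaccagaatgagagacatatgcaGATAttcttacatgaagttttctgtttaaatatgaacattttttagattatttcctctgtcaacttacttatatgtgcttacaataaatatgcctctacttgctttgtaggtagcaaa
GATA letters stood in 3 of the 11 windows, both Tenm4 windows and the Macc1 window, against 53.6% of 32851 windows over all genes. In the first Tenm4 window the match began 162 bases before the start, and the Macc1 window held 3 matches, 147, 145 and 118 bases before it. CAGGTG stood in 1 window, that of Cpeb1, 63 bases before the start, against 17.2% of all windows. CAGCTG stood in none of the 11 and in 13.0% of all. A match is only a run of letters, and these short windows say nothing of binding elsewhere.

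Of the 3 genes of membrane transport, Slc22a4 and Kcns3 were silent or nearly so in wild-type libraries, and Atp8a2 was low. Slc22a4 (chr11:53983115-54030040) encodes OCTN1, an organic cation carrier known for the uptake of ergothioneine. It had 5 reads over the 8 wild-type libraries and 691 over the 9 transgenic ones. In young DN2 its level was 0 in both wild-type libraries and 1.60, 0.644 and 0.652 CPM in the transgenic ones. In young DN3a it was 0.179, 0 and 0 CPM in wild-type and 8.51, 8.17 and 5.64 CPM in transgenic libraries, and in old DN3a 0.245, 0 and 0.110 against 14.0, 16.8 and 16.6 CPM. No transgenic library overlapped a wild-type one of its setting. The level was at least 7.53-fold higher in transgenic DN2 (against 3 reads over the wild-type group), 116-fold higher in young DN3a (95% counting interval 31.6 to 965, from 178 against 2 reads) and 141-fold higher in old DN3a (47.8 to 684, from 487 against 3 reads). These intervals are exact and cover counting error only.

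Kcns3 (chr12:11090202-11151168) encodes a voltage-gated potassium channel subunit that forms no channel by itself and modifies Kv2 channels. It had reads in 1 of 8 wild-type libraries, young DN3a replicate 2 at 0.198 CPM. The transgenic libraries held 0.942, 1.13 and 0.130 CPM in DN2, 12.7, 4.90 and 7.01 CPM in young DN3a and 3.84, 4.03 and 12.4 CPM in old DN3a. The single read of transgenic DN2 replicate 3 was the lowest of the 9, and both DN3a groups had 1 library well above the other pair. The level was at least 5.21-fold higher in transgenic DN2 and at least 58.0-fold higher in transgenic old DN3a. In young DN3a it was 126-fold higher (34.4 to 1046).

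Atp8a2 (chr14:59647531-60086914) encodes a P4-ATPase, a flippase that moves aminophospholipids to the inner leaflet of membranes. It was the only one of the 8 higher genes with reads in all 8 wild-type libraries, where it held 0.177 and 0.301 CPM in DN2, 0.805, 1.68 and 1.75 CPM in young DN3a and 1.10, 0.529 and 0.662 CPM in old DN3a. The transgenic libraries held 6.97, 17.1 and 14.0 CPM, then 48.8, 63.1 and 62.1 CPM, then 104, 148 and 195 CPM in the same order. The lowest transgenic library of any setting was above the highest wild-type library of all settings. The fitted log2 fold change was 5.65 ± 0.56 (SE) in DN2, and 5.36 ± 0.36 and 7.60 ± 0.41 in DN3a of young and old mice.

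The next 3 genes encode proteins of the cell surface or membrane. Tenm4 (chr7:96171244-96911093) encodes a teneurin, a large adhesion protein best known from neurons. It had 12 reads in all over the wild-type libraries, at most 0.613 CPM (old DN3a replicate 1). The transgenic libraries held 3.49, 11.1 and 9.26 CPM in DN2, 8.67, 4.52 and 5.74 CPM in young DN3a and 25.0, 59.5 and 77.9 CPM in old DN3a. Young transgenic DN2 and DN3a libraries overlapped each other, and each old one stood above both. Against wild-type, the level was 154-fold higher in DN2 (27.3 to 6110, from 177 against 1 read), 65.6-fold in young DN3a (22.0 to 322) and 179-fold in old DN3a (90.8 to 416).

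Clec4d (chr6:123262107-123275268) encodes a C-type lectin of myeloid cells that binds mycobacterial glycolipid and works with its neighbour Clec4e. It was the only one of the 8 higher genes whose transgenic level was highest in DN2, at 8.20, 5.79 and 4.04 CPM. Transgenic young DN3a libraries held 0.929, 0.628 and 0.973 CPM and old ones 1.48, 3.76 and 4.12 CPM. Wild-type libraries held 0 and 0.301 CPM in DN2, 0 in all 3 of young DN3a, and 0, 0 and 0.110 CPM in old DN3a. The level was 44.6-fold higher in DN2 (15.0 to 219, from 154 against 3 reads), at least 9.12-fold higher in young DN3a and 83.1-fold higher in old DN3a (14.6 to 3317, from 96 against 1 read). A list of 12 myeloid markers had a summed level of 136 to 175 CPM in transgenic DN2 and 34.0 to 35.0 CPM in wild-type DN2. The same sum was 19.9 to 38.1 against 30.0 to 41.7 CPM in young DN3a and 10.7 to 18.7 against 35.8 to 47.5 CPM in old DN3a, with overlap in the first and the transgenic libraries lower in the second. Of the 6 myeloid markers tested, 4 were called higher in transgenic DN2, where 13.3% of all genes were. In each DN3a comparison 1 was called lower, beside 5.16% of all genes in young and 15.7% in old DN3a. Elane, Cd14, S100a8 and S100a9 had 0 reads in every group. The part of other cells in the Clec4d level was not tested.

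Tmem45a (chr16:56805161-56886433) encodes a transmembrane protein, described mainly in skin. A single read of old DN3a replicate 1 was all that the 8 wild-type libraries held. Transgenic DN2 held 0.565, 0.644 and 0 CPM, young DN3a 7.58, 6.03 and 7.98 CPM and old DN3a 6.70, 5.10 and 6.23 CPM. In DN2 the groups overlapped, because replicate 3 had no read. Its level was at least 2.90-fold higher in transgenic DN2, at least 77.8-fold higher in young DN3a and 159-fold higher in old DN3a (28.2 to 6326).

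**Figure D1:**
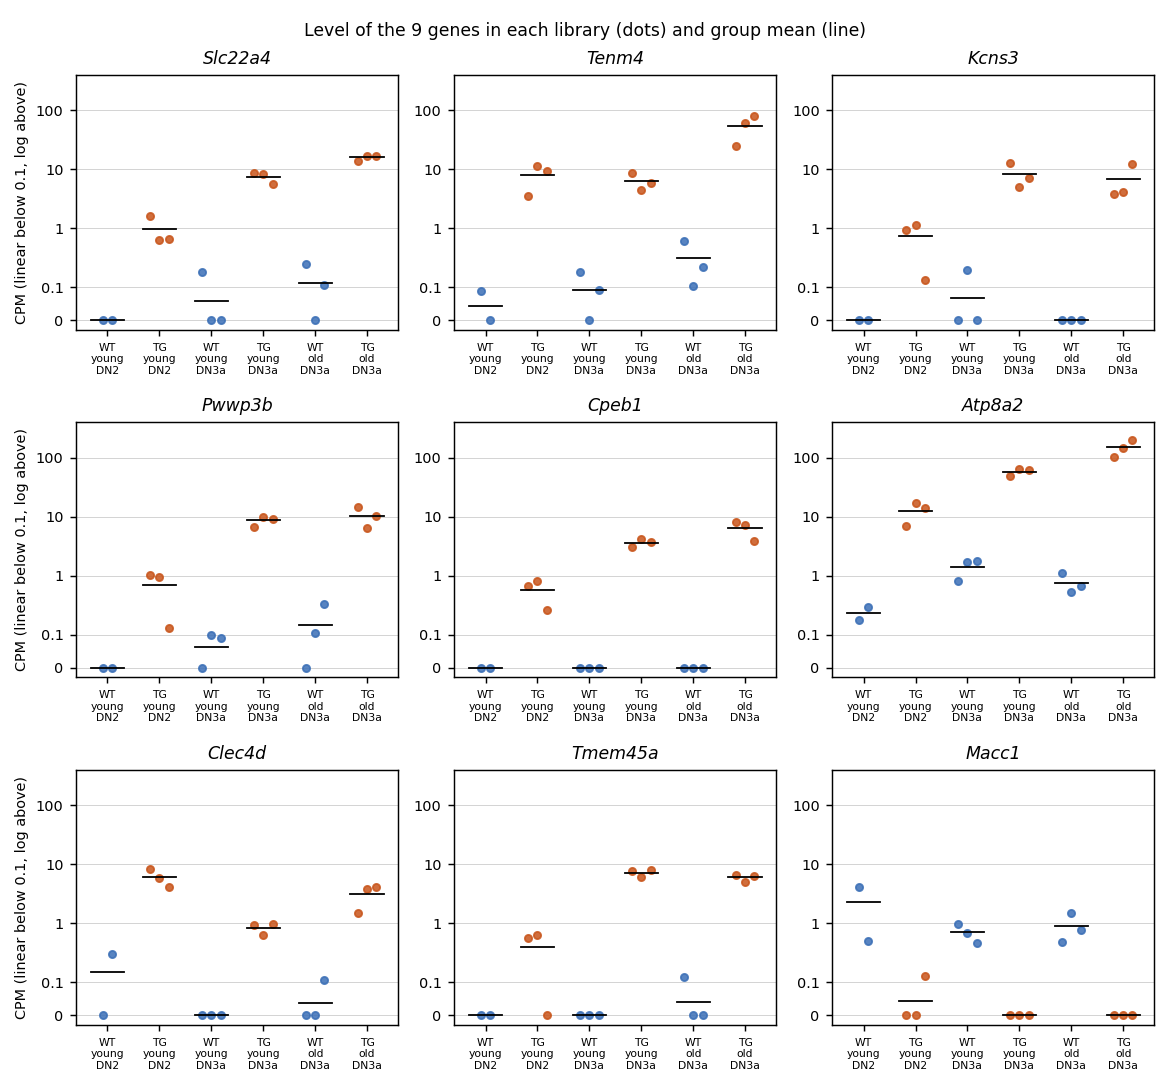
CPM of each of the 9 genes in each library (dots, blue for wild-type or WT and orange for transgenic or TG) with the group mean (line), by genotype, age and stage. The axis is linear below 0.1 CPM and logarithmic above. In it 8 genes sit near 0 in the wild-type groups (Atp8a2 at up to 1.41 CPM as a group mean) and higher in the transgenic groups. Most of these genes are lowest in DN2 among the transgenic groups, while Macc1 has reads in every wild-type library and in 1 transgenic library.

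The remaining pair of higher genes encode nuclear or RNA-binding proteins. Pwwp3b (chrX:139209977-139238335) carries a PWWP domain, a fold known for binding methylated histone H3. It had at most 0.331 CPM in a wild-type library (old DN3a replicate 3, 3 reads). The transgenic libraries held 1.04, 0.966 and 0.130 CPM in DN2, 6.81, 10.1 and 9.05 CPM in young DN3a and 14.5, 6.35 and 10.5 CPM in old DN3a. The mouse of transgenic DN2 replicate 3 and young DN3a replicate 1 gave the lowest value of both groups, as it did for Cpeb1. Its DN2 library was also the lowest for Kcns3 and Tmem45a, while its DN3a library was the highest of its group for Kcns3 (12.7 CPM). This mouse was the only male among the transgenic mice, and the part of sex in these levels was not tested. Transgenic DN2 was at least 5.21-fold higher, young DN3a 141-fold higher (38.7 to 1175) and old DN3a 68.6-fold higher (26.5 to 253).

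Cpeb1 (chr7:81347026-81458001) encodes the protein that binds the cytoplasmic polyadenylation element of mRNAs and governs their translation in oocytes and neurons. It had 0 reads in all 8 wild-type libraries and 304 over the 9 transgenic ones. Its level was 0.659, 0.805 and 0.261 CPM in DN2, 3.10, 4.15 and 3.70 CPM in young DN3a and 7.98, 7.25 and 3.91 CPM in old DN3a. These were at least 4.06-fold, at least 39.5-fold and at least 57.4-fold above wild-type.

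Macc1 (chr12:119390398-119466934), known as a regulator of the MET receptor gene in carcinoma, was the only gene of the 9 that was lower in transgenic cells. It had reads in all 8 wild-type libraries, at 4.07 and 0.501 CPM in DN2, 0.984, 0.692 and 0.459 CPM in young DN3a and 0.490, 1.48 and 0.772 CPM in old DN3a. Over the 9 transgenic libraries it had 1 read, in DN2 replicate 3. The level was 58.7-fold lower in transgenic DN2 (10.1 to 2363, from 1 against 51 reads, of which wild-type replicate 1 gave 46), at least 5.88-fold lower in young DN3a and at least 9.62-fold lower in old DN3a. Its wild-type level was itself low, and no group mean exceeded 2.28 CPM.

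The 9 genes were chosen among those called in each genotype comparison (edgeR, adjusted p under 0.05 over 13534 tested genes), so that 8 higher and 1 lower in each is a result of the choice and no test of them. Of all tested genes 25.3% were called in DN2 (13.3% higher, 12.0% lower), 9.86% in young DN3a (4.70% higher, 5.16% lower) and 30.6% in old DN3a (14.9% higher, 15.7% lower). In all 3 comparisons 1.23% were higher and 1.08% lower, 2.31% together. The median log2 fold change of the 9 was 5.65 in DN2, 6.63 in young and 6.96 in old DN3a, beside 0.03, 0.02 and -0.04 over all tested genes. The filter on low counts bears on the choice too: among the 8 higher genes only Atp8a2 reached 10 reads in a wild-type library, so that the others passed through their transgenic libraries. Transgenic and wild-type libraries did not overlap for 8 of the 9 genes in young DN2, where 49.7% of all genes did not, and for 9 of 9 in both DN3a settings (29.9% and 45.6%).

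The size of the set depends on where the smallest of the 3 fold changes is cut. Tmem45a was just inside, with a smallest absolute log2 fold change of 4.98, next to Clec4d at 5.27. Tbx4 (4.96), Cdh13 (4.74) and Esrp1 (4.44) were just outside, and Lmo2 itself stood at 6.16. With a minimum of 5 CPM in each comparison, only Tenm4 and Atp8a2 of the 9 would remain in a ranking of 245 genes.

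**Figure D2:**
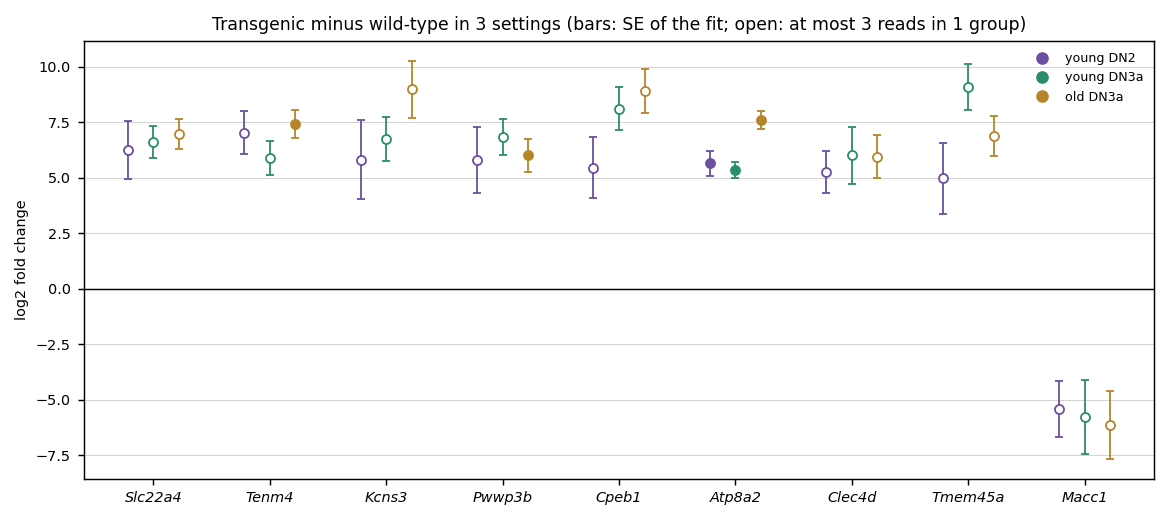
Fitted log2 fold change of transgenic over wild-type (vertical axis) for each of the 9 genes in the 3 settings, with the SE of the fit. Open symbols mark comparisons with at most 3 reads in one group, where the fitted value depends on the small count added by the fit and is no bound. For Atp8a2, with more reads in every group, the values are 5.65, 5.36 and 7.60.

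The young DN2 setting held the fewest reads of the 9 genes, and 6 of them had at most 26 reads over the 3 transgenic libraries.

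Per kilobase of the counted feature, the order of the 9 genes differed between transgenic groups. In transgenic DN2 the highest were Clec4d at 4.50 ± 1.56 CPM per kilobase (SD, n = 3) and Atp8a2 at 3.44 ± 1.40, which did not differ beyond their spread. Tenm4 followed at 0.748 ± 0.374 and the other 5 higher genes lay at 0.148 to 0.427. In transgenic young DN3a Atp8a2 led at 15.7 ± 2.17, followed by Slc22a4 (3.29 ± 0.69), Kcns3 (2.68 ± 1.32) and Tmem45a (2.67 ± 0.38), the last 3 within their spread of each other, while Clec4d (0.631 ± 0.140) and Tenm4 (0.594 ± 0.200) were lowest of the 8 and within their spread. In transgenic old DN3a Atp8a2 held 40.5 ± 12.4, Slc22a4 6.99 ± 0.70 and Tenm4 5.09 ± 2.53, the last pair within their spread, and the other 5 lay at 2.05 to 2.33.

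Comparisons within a genotype were not used to choose the genes, although they share libraries with those that were, and they were tested. The first asked how the genes differed between DN3a and DN2 of young mice. In transgenic cells 6 of the 9 genes rose from DN2 to DN3a, Clec4d fell, and Tenm4 and Macc1 did not pass. Over all genes 25.9% were called, 12.7% higher and 13.2% lower, and the groups did not overlap for 39.1%. Among the 6, Slc22a4, Kcns3, Pwwp3b, Cpeb1 and Tmem45a had at most 26 reads in transgenic DN2 and passed the filter on low counts through DN3a libraries, so that their number is no support for a shared direction. Tmem45a rose most, by 4.11 ± 0.68 on the log2 scale (SE, edgeR adjusted p = 0.00027), with every DN3a library at or above 6.03 CPM and every DN2 library at or below 0.644 CPM. Pwwp3b rose by 3.56 ± 0.61 (adjusted p = 0.000256) and Kcns3 by 3.46 ± 0.74 (adjusted p = 0.00249). Slc22a4 rose by 2.86 ± 0.52 (adjusted p = 0.000446), Cpeb1 by 2.65 ± 0.59 (adjusted p = 0.00424) and Atp8a2 by 2.21 ± 0.30 (adjusted p = 2.09e-05). For all 6 the 3 DN3a libraries lay above the 3 DN2 libraries.

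Clec4d moved the other way, with a log2 change of -2.82 ± 0.66 (adjusted p = 0.00424) and no overlap of its libraries. Lmo2, the transgene's product, was also lower in DN3a, by -1.74 ± 0.35 (adjusted p = 0.00109). The DN2 level of Tenm4 was close to its DN3a level, with a log2 difference of -0.32 ± 0.46 (adjusted p = 0.666) and overlapping libraries. Macc1, with 1 read in these 6 libraries, allows no fold. For all 7 called genes the libraries of the stages did not overlap. These 7 calls were made under each alternative run, the fit without a filter on low counts and the fit with the mouse as a block included.

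In wild-type cells 7 of the genes had at most 3 reads in both stages, so that no difference was detectable at this depth. Atp8a2 was higher in DN3a, by 2.51 ± 0.67 on the log2 scale (edgeR adjusted p = 0.0314), from 0.177 and 0.301 CPM in DN2 to 0.805, 1.68 and 1.75 CPM in DN3a. It was the only one of the 9 called or without overlap, and over all genes 6.35% were called (2.83% higher, 3.52% lower) and 42.0% did not overlap. The call was lost with the mouse as a block (adjusted p = 0.0544), with limma voom (0.319) and with only these groups fitted (0.152). It was also lost without either wild-type DN2 library (adjusted p = 0.378 without replicate 1 and 0.0535 without replicate 2) and without wild-type DN3a replicate 2 (0.118) or 3 (0.0625). Macc1 had a log2 difference of -1.67 ± 0.87 (adjusted p = 0.273), which rested on wild-type DN2 replicate 1 and was 0.51 without it. Whether the stage difference of Atp8a2 or of any other gene differed between genotypes was not tested.

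The second comparison asked how DN3a cells of old and young mice differed. In transgenic cells Tenm4 rose by 3.11 ± 0.47 on the log2 scale (edgeR adjusted p = 0.000446), with 25.0 to 77.9 CPM in old against 4.52 to 8.67 CPM in young libraries. Atp8a2 rose by 1.36 ± 0.28 (adjusted p = 0.00534), with 104 to 195 against 48.8 to 63.1 CPM. These were 2 of 9 genes, and over all genes 7.82% were called, 3.19% higher and 4.63% lower. The median log2 difference of the 9 was 0.80, with Macc1 included although it had no read here, beside -0.04 over all genes. The genes were chosen by fold changes that use these transgenic libraries, so that this median is no support for a shared rise. For Tenm4 and Atp8a2, the transgenic mouse of 6 weeks gave the lowest of the old values, still above each young one. The first letter of the library names differed between that mouse and those of 10 weeks. With this letter in the fit Atp8a2 no longer passed (log2 difference 1.03, adjusted p = 0.0985), and Tenm4 did.

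Slc22a4 and Clec4d also had old libraries entirely above young ones, as 30.0% of all genes had no overlap, but did not pass. Slc22a4 held 14.0 to 16.8 CPM in old and 5.64 to 8.51 CPM in young transgenic DN3a, a log2 difference of 1.09 ± 0.44 (edgeR adjusted p = 0.143). It passed with DESeq2 (adjusted p = 0.0448), limma voom (0.00773) and a fit of these 2 groups alone (0.0273). Clec4d had a log2 difference of 1.87 ± 0.66 (adjusted p = 0.0926) and passed with DESeq2 (0.0464) and limma voom (0.0281). Kcns3, Pwwp3b, Cpeb1 and Tmem45a overlapped between the ages, with log2 differences from -0.28 to 0.80. For Pwwp3b, Cpeb1 and Tmem45a the mouse of 6 weeks gave the highest of the old values, 14.5, 7.98 and 6.70 CPM.

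In wild-type DN3a none of the 9 genes was called between ages by edgeR, DESeq2 or limma voom, and none had an unadjusted p under 0.05 with edgeR, where 0.244% of all genes were called (0.103% higher, 0.140% lower). No gene of the 9 was without overlap, and 14.3% of all genes were. The 2 genes with the most wild-type reads, Atp8a2 and Macc1, had log2 differences of -0.89 ± 0.48 (edgeR adjusted p = 0.787) and 0.37 ± 0.85 (adjusted p = 0.976). The other 7 had at most 8 reads in either group. Whether age differences differed between genotypes was not tested.

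**Figure D3:**
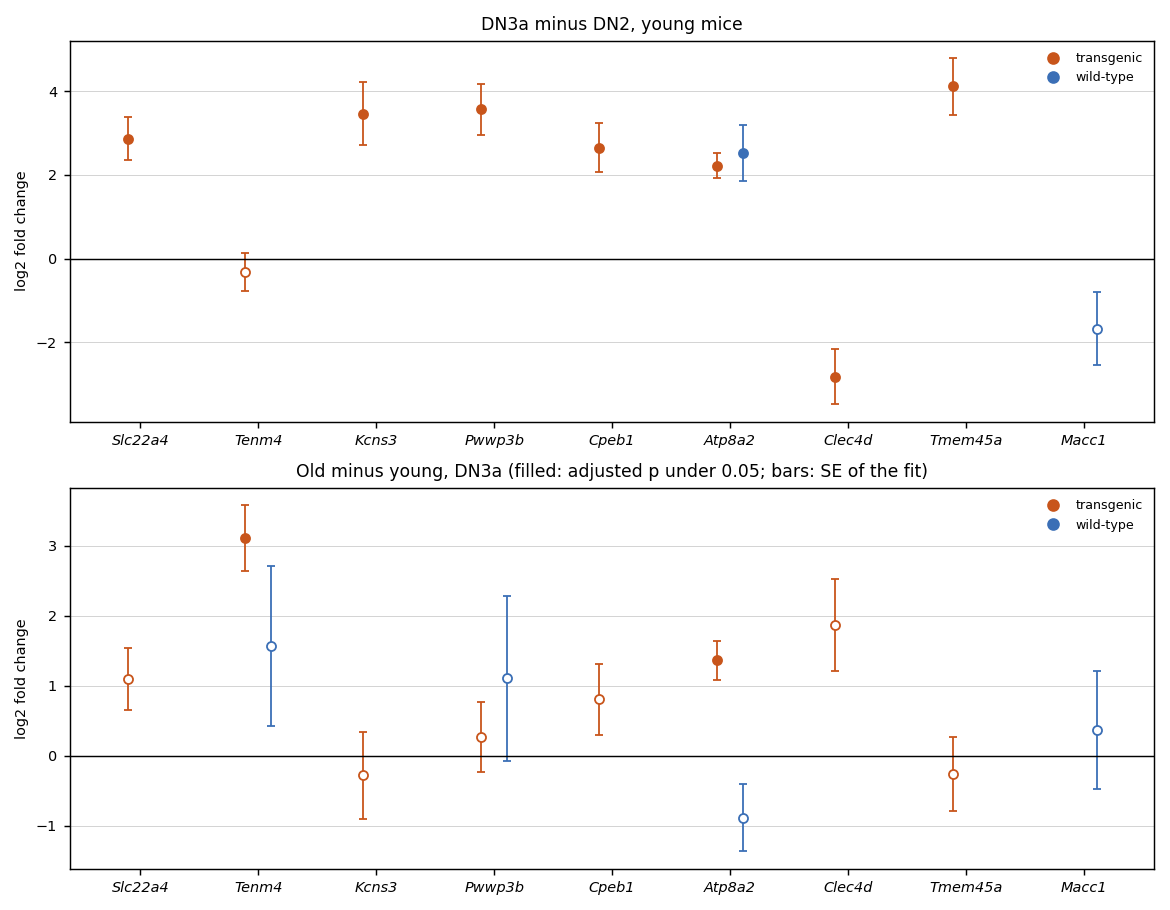
Log2 fold change (vertical axis) from DN2 to DN3a in young mice (upper panel) and from young to old in DN3a (lower panel) for the 9 genes, transgenic in orange and wild-type in blue, with the SE of the fit. Filled symbols passed an adjusted p of 0.05, and genes with at most 3 reads in both groups have no symbol. Between stages in transgenic cells the filled symbols are 6 genes above 0 and Clec4d below it, and Tenm4 is open at -0.32. Between ages Tenm4 and Atp8a2 are the filled symbols of transgenic cells.

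The neighbouring genes on the chromosome were examined next, 3 annotated genes on each side and those overlapping. Of 64 such neighbours 30 were in the count table and 14 were tested, none of them beside Macc1 or Pwwp3b. In young DN2 4 of the 14 were called higher in transgenic cells, against 13.3% of all genes, and in young DN3a also 4, against 4.70%. In old DN3a 6 were higher, against 14.9%. One was lower in young DN2 (Gen1, beside Kcns3, which was higher in old DN3a) and 1 in old DN3a (Adgrg7, beside Tmem45a), where 12.0% and 15.7% of all genes were.

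Clec4e, which encodes the lectin Mincle and starts 6521 bases after Clec4d ends, was the only neighbour called in all 3 settings. Its level was 0.619 and 3.81 CPM in wild-type DN2 and 61.7, 50.1 and 71.7 CPM in transgenic DN2. In young DN3a it was 0.179, 0 and 0.643 against 3.87, 6.54 and 2.43 CPM, and in old DN3a 0.123, 1.27 and 0.551 against 13.6, 34.4 and 51.6 CPM. The groups did not overlap in any setting. The log2 fold change was 4.81 ± 0.81 (edgeR adjusted p = 0.000652) in DN2, 3.87 ± 0.90 (adjusted p = 0.0122) in young DN3a and 5.61 ± 0.77 (adjusted p = 6.79e-05) in old DN3a. Like Clec4d it fell from DN2 to DN3a in transgenic cells, by -3.85 ± 0.65 (adjusted p = 0.000435), and it rose from young to old transgenic DN3a, by 2.96 ± 0.63 (adjusted p = 0.00943). The other 7 listed lectins of that cluster did not pass the filter on low counts. Of the signalling partners of these lectins, the adaptor Fcer1g did not pass in any genotype comparison. The kinase Syk was higher in transgenic DN2 (1.10 ± 0.18, adjusted p = 0.000273) and lower in young (-1.02 ± 0.16, adjusted p = 0.000304) and old DN3a (-1.18 ± 0.16, adjusted p = 2.03e-05). The adaptor Card9 was lower in all 3, most in old DN3a (-2.79 ± 0.35, adjusted p = 6.72e-06).

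Pdlim4 and P4ha2, neighbours of Slc22a4, differed from it in pattern. Pdlim4, a LIM protein of the actin cytoskeleton, held 3.56, 6.28 and 4.09 CPM in transgenic young DN3a and 0.179, 0 and 0 CPM in wild-type (log2 fold change 5.96 ± 1.44, edgeR adjusted p = 0.0149). In transgenic old DN3a the mouse of 6 weeks held 3.15 CPM and those of 10 weeks 0.0895 and 0.317 CPM. P4ha2, a collagen prolyl hydroxylase subunit, held 5.71, 0.626 and 0.317 CPM in the same 3 libraries. Both were called in old DN3a (adjusted p = 0.0274 and 0.0106) on groups in which that mouse gave most of the reads. Slc22a4 itself held 14.0, 16.8 and 16.6 CPM there.

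Pde8a, a cyclic AMP phosphodiesterase beside Cpeb1, was higher in transgenic young DN3a (3.51 ± 0.66 on the log2 scale, edgeR adjusted p = 0.00145) and old DN3a (3.31 ± 0.63, adjusted p = 0.000548). In DN2 it did not pass (-1.29 ± 0.70, adjusted p = 0.182), and wild-type replicate 1 alone held 3.71 CPM. Shisa2, which holds back maturation of WNT and FGF receptors and lies beside Atp8a2, was higher in transgenic DN2 (3.69 ± 0.93, adjusted p = 0.00712) and old DN3a (4.49 ± 0.97, adjusted p = 0.00162) and did not pass in young DN3a (adjusted p = 0.754). The other called neighbours were Slc22a21, a carnitine carrier beside Slc22a4, and the adaptor Gab2 near Tenm4, both higher in DN2 only by the test (adjusted p = 0.0379 and 0.0219), and the Holliday junction resolvase Gen1, higher in old DN3a (adjusted p = 0.000275). The strand of the libraries is not given, so that reads of overlapping neighbours cannot be told apart.

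**Figure D4:**
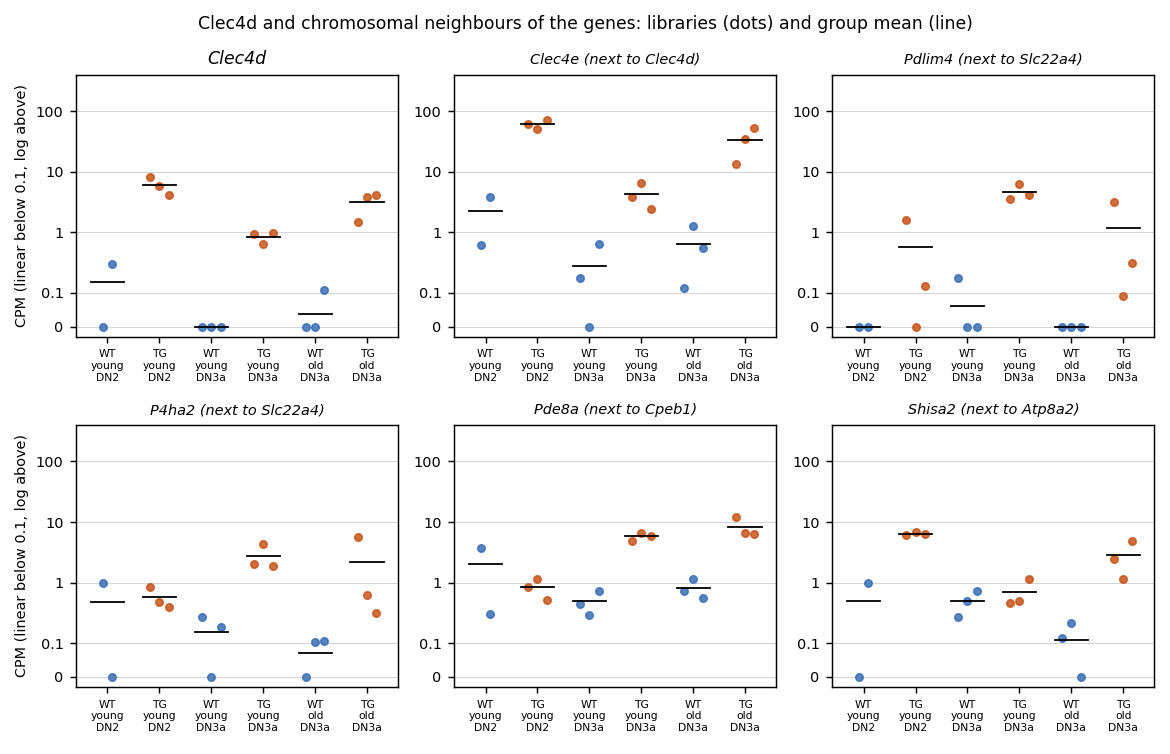
CPM in each library (dots, blue for wild-type or WT, orange for transgenic or TG) and group mean (line) of Clec4d, of its neighbour Clec4e and of 4 other neighbours of the 9 genes, on an axis that is linear below 0.1 CPM and logarithmic above. Clec4e follows the order of Clec4d over the transgenic groups (means of 61.2, 4.28 and 33.2 CPM, DN2 first and old DN3a last). Pdlim4 and P4ha2 are high in 1 old transgenic library.

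Relatives of the 9 genes were examined by family. Of 59 listed family members 27 were tested, and 6 were called higher and 4 lower in DN2, where 13.3% and 12.0% of all genes were. In young DN3a 3 were higher and 1 lower (4.70% and 5.16% of all genes), and in old DN3a 6 and 4 (14.9% and 15.7%). Of these relatives, Clec4e and Slc22a3 were called higher in each setting. Slc22a3, an organic cation carrier like Slc22a4, was higher in transgenic DN2 by 0.92 ± 0.28 on the log2 scale (edgeR adjusted p = 0.0211), with 2.78 ± 0.26 in young DN3a (adjusted p = 1.28e-06) and 2.80 ± 0.26 in old DN3a (adjusted p = 2.31e-07). Unlike Slc22a4 it was well expressed in wild-type cells, at 93.5 ± 19.3 CPM in DN2 and 33.7 ± 12.9 CPM in young DN3a. Slc22a17 was lower in old DN3a (-5.07 ± 0.65, adjusted p = 1.83e-05) and Slc22a15 higher (2.77 ± 0.52, adjusted p = 0.00048). Slc22a18 was at 0 in wild-type DN2 and 2.13 CPM in transgenic DN2.

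Tenm1, the only other teneurin that passed the filter, went the opposite way from Tenm4 in young mice. It was lower in transgenic DN2 (-3.99 ± 0.65, edgeR adjusted p = 0.000244) and young DN3a (-1.94 ± 0.40, adjusted p = 0.00337), and did not pass in old DN3a (-0.51 ± 0.38, adjusted p = 0.320). Of the latrophilins, receptors that bind teneurins, Adgrl1 was lower in transgenic DN2 (-1.69 ± 0.25, adjusted p = 9.27e-05) and higher in old DN3a (1.03 ± 0.23, adjusted p = 0.00193), and Adgrl2 was lower in old DN3a (-4.94 ± 0.80, adjusted p = 0.000113).

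Among 14 other flippases 11 were tested. Atp8a1, the closest relative of Atp8a2, was abundant in all groups (200 to 494 CPM as group means) and lower only in transgenic DN2 by the test (-0.71 ± 0.20, edgeR adjusted p = 0.0148). Atp10a was higher in transgenic young DN3a (1.01 ± 0.18, adjusted p = 0.000976) and old DN3a (1.05 ± 0.18, adjusted p = 0.000217). Atp11a was lower in old DN3a (-3.79 ± 0.63, adjusted p = 0.000264). Tmem30a, the subunit that P4-ATPases need to leave the endoplasmic reticulum, did not pass in any setting, with log2 differences of 0.11 to 0.26.

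In a list of 23 genes of the LMO2 complex and its partners, which holds Lmo2 itself, 20 were tested. Of these, 5 were higher and 3 lower in transgenic DN2, 3 and 2 in young DN3a and 5 and 4 in old DN3a, Lmo2 counted among the higher ones. Of all genes 25.3%, 9.86% and 30.6% were called in either direction. The lower ones were Gata3, Id2 and Id3 in DN2 and Lmo1 and Tcf4 in both DN3a settings. Ldb1 (-0.71 ± 0.22, edgeR adjusted p = 0.0184) and Ssbp2 were also lower in old DN3a. Beside the genes named next, Cbfa2t3 and Id1 were higher in DN2, and Lmo4 and Gata3 in old DN3a. Lyl1, the basic helix-loop-helix partner, and Hhex, a homeobox gene known as an LMO2 target, were higher in each setting. Lyl1 had log2 fold changes of 2.72 ± 0.61 (edgeR adjusted p = 0.00602), 4.37 ± 0.61 (adjusted p = 0.000416) and 7.44 ± 0.75 (adjusted p = 6.85e-06) in the order of the settings above. Hhex had 3.93 ± 0.67 (adjusted p = 0.000953), 3.94 ± 0.64 (adjusted p = 0.00133) and 6.01 ± 0.70 (adjusted p = 2.39e-05). Both fell from DN2 to DN3a in transgenic cells, Lyl1 by -1.66 ± 0.50 (adjusted p = 0.0264) and Hhex by -3.04 ± 0.54 (adjusted p = 0.000913), and in wild-type cells (-3.30 ± 0.63, adjusted p = 0.0104, and -3.05 ± 0.68, adjusted p = 0.0206).

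Other cell type markers moved with genotype as well. Of 8 NK and innate lymphoid markers the summed level was 188 to 251 CPM in transgenic and 79.0 to 90.9 CPM in wild-type DN2, with Ncr1 at 0 reads in every group. It was 31.3 to 53.7 against 49.0 to 61.9 CPM in young DN3a and 29.2 to 73.0 against 49.3 to 74.1 CPM in old DN3a. Of the 4 tested, 4 were called higher in DN2 and 1 in young DN3a, where 13.3% and 4.70% of all genes were. None was called in old DN3a, where 30.6% of all genes were. The median log2 fold change of the 4 was 5.64 in DN2, 2.65 in young and 1.53 in old DN3a. Of 5 mast cell and basophil markers Cpa3 gave nearly all reads, with group means of 739 against 233 CPM in DN2, 463 against 30.3 CPM in young DN3a and 879 against 37.2 CPM in old DN3a (transgenic first). It was the only one tested, and passed in young (edgeR adjusted p = 0.00723) and old DN3a (adjusted p = 0.00117) but not in DN2 (adjusted p = 0.161). Fcer1a, Ms4a2 and Cma1 were at 0 in every group, and Mcpt8 in every group but transgenic DN2. Of 7 double positive and mature T cell markers 1 was called higher and 1 lower in transgenic DN2, 4 higher and none lower in young DN3a, and 4 higher and 1 lower in old DN3a, beside the shares of all genes given above. Other sums were also higher in transgenic DN2, without overlap. They were 29.2 to 31.9 against 16.3 to 21.2 CPM for dendritic and 276 to 286 against 205 to 213 CPM for stroma markers. Megakaryocyte and erythroid markers held 11.27 to 16.96 against 2.12 to 4.81 CPM. B cell marker sums overlapped in DN2. Dendritic and B cell sums were lower in both DN3a settings, dendritic at 3.27 to 4.49 against 12.85 to 15.98 CPM in young mice. The part of these markers in the levels of the 9 genes was not tested.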

How the data were processed

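The authors deposited raw read counts per Entrez gene for 17 libraries. The submitters' processing notes name featureCounts and mm10. RNA was made into TruSeq libraries and read from 1 end, per the labels' protocols. No source used here gives the aligner, annotation or strand. Single-library files equalled the combined table in 17 of 17 cases. Names came from RefSeq for 25275 of 27179 rows. Counts were filtered with filterByExpr (minimum count 10, minimum total 15), given TMM factors, and tested in edgeR 4.0.16 under R 4.3.3 (robust quasi-likelihood, all 6 groups together), with Benjamini-Hochberg adjustment over 13534 genes at 0.05. SE is the absolute log2 fold change over the root of the F statistic. Folds not on the log2 scale are ratios of pooled CPM with exact 95% counting intervals. Where the lower group had no read, they are bounds against a floor of 3 reads over that group. P-values rest on an estimate of the spread between libraries within groups, shared by all groups. In the main fit the DN2 and DN3a libraries of a mouse were treated as independent.

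The genes and lists were chosen with earlier results of these data known. All 9 genes are named, with family, partner and complex genes called in a genotype comparison, neighbours called, and the 2 genes most alike by Pearson correlation, of which some are not reported here. DN2 and DN3a libraries of 5 mice came from the same mouse, and their deviations from group means correlated at -0.0722 to 0.186, over 0.1 in 1 of 5. Alternatives were DESeq2 1.42.0, limma 3.58.1 (voom), other filters, normalizations and sample sets, covariates, blocks and each library left out. The scripts were tested on simulated data.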

Additional observations from a re-analysis of the deposited data

How the results depend on the processing

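Groups of 2 or 3 libraries and levels near 0 limit these results, and wild-type DN2 has only 2 libraries. The count of the 9 genes called in young DN2 fell from 9 to 3 with only the groups compared and ranged from 4 (without wild-type DN2 replicate 1) to 9 over single libraries left out. The calls lost most often in young DN2 were those of Tmem45a, under 7 alternatives, and Kcns3, under 6. In young DN3a the call of Macc1 was lost under 9 alternatives, among them each transgenic library of that group left out. These calls are in the comparisons that chose the genes and test nothing about them. Between stages in wild-type cells the count of the 9 genes called was 1, but 0 with limma voom or only the groups compared, and 0 to 1 over libraries left out. Between ages in transgenic cells it was 2, but 4 with DESeq2, 4 with limma voom and 1 with the library letter as covariate. The genes called in all 3 genotype contrasts in 1 direction numbered 312, but 523 with limma voom and 199 with the unnamed feature's share as covariate. The members among them numbered 2 with only the groups compared, and 4 to 9 over libraries left out. For these counts the cause was not tested beyond the fewer samples fitted.

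With a replicate block by mouse no member was called between stages in wild-type cells (0 against 1) and the transgenic count stayed at 7. With a replicate block by replicate number, where labels do not say that a number is shared, the members called between genotypes in young DN3a numbered 8, the genes called in all 3 genotype contrasts in 1 direction 331, with 8 members among them, and no other count of members moved. Same-numbered libraries correlated at -0.0189 to 0.22 in 8 pairs, 4 over 0.1.

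Uncalled differences changed sign in 10 cases. Between stages in wild-type cells Macc1 was 0.508 without wild-type DN2 replicate 1 (range from -2.48 over libraries left out). Between ages in wild-type cells Pwwp3b was -0.116 without old replicate 3 (range to 1.60), and Macc1 was -0.00821 with limma voom and -0.165 without old replicate 2 (range to 0.671). Between ages in transgenic cells Kcns3 (lowest -1.05 over libraries left out) was 0.0147 with the feature share as covariate, 0.160 without the libraries rich in that feature, 0.191 without young replicate 1 and 0.000809 without old replicate 1, Pwwp3b was -0.0438 without old replicate 1 (range to 0.527), and Tmem45a was 0.0412 with the library letter. Without the 4 libraries rich in the unnamed feature, comparisons with transgenic DN2 were not run, as 1 such library remained.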

Other observations

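The genes whose level followed each of the 9 most closely are given as a description. The measure was Pearson's r of log2 CPM over the 17 libraries, among 12103 candidates whose mean level reached 1 CPM. The libraries share genotype, stage and age groups, so that a high r largely restates the group levels, and no test was made. Slc22a4 was most like Tbx4, a T-box transcription factor (r = 0.975), which had group means of 3.19, 32.7 and 76.3 CPM in transgenic cells (DN2, then young and old DN3a) and at most 0.230 CPM as a wild-type group mean. Tbx4 was also nearest to Cpeb1 (r = 0.983) and next nearest to Pwwp3b (r = 0.966), whose nearest was Acnat1 (r = 0.970). Kcns3 was most like Cd2, an adhesion receptor of T cells (r = 0.966), at 8.12, 79.7 and 53.4 CPM in the transgenic groups and below 1 CPM in each wild-type group. Tmem45a (r = 0.979) was nearest to the cadherin Cdh13, which was second for Kcns3 (r = 0.953).

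Tenm4 was nearest to Tnfsf10, which encodes the death ligand TRAIL (r = 0.966), and to the amino acid carrier Slc7a8 (r = 0.961). Atp8a2 was nearest to the integrin gene Itgb2 (r = 0.957) and the pseudokinase gene Trib2 (r = 0.952), both with reads in all wild-type groups. Clec4d was nearest to the tropomyosin gene Tpm1 (r = 0.968). Macc1 was nearest to Rasl10a (r = 0.891), whose mean level was likewise lower in the transgenic groups. The second genes of the others were Gm15915 for Slc22a4 (r = 0.966), Serpine2 for Cpeb1 (r = 0.973) and Ptgfrn for Tmem45a (r = 0.978). With a prior count of 0.5 in place of 2, 11 of the 18 pairs stayed among the nearest 2.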
